A study of Mus musculus with 30 samples.

Results

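The genes described here are 38 genes of mitosis and chromosome segregation, the machinery by which a dividing cell condenses its chromosomes, attaches them to the spindle, separates them and divides. They were taken by name from a list of well known mitotic genes. The rule itself uses no measured value, but the list was chosen with earlier results of these data known. All 38 were found among the 14475 genes of the deposited table. The study measured RNA from pieces of mouse colon, so the level of each gene was compared between mutants and controls, between the descending and the ascending colon, and between cages.

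The mutants, labelled TM-DKOAsc, carried floxed C1galt1, a Cre recombinase that tamoxifen switches on in cells using the Villin promoter, which is active in the gut epithelium, and were C3GnT-/- (gene symbol B3gnt6). These enzymes start the core 1 and the core 3 branch of mucin-type O-glycans, the sugar chains of the mucus layer. The controls are littermates labelled only Control, called WT in the protocol, which describes tamoxifen injections for mutants and WT alike: 0.5 mg daily (about 20 mg/kg) for 5 days, with analysis 5 or 10 days after the last dose (the labels do not tell the 2 times apart by library). Each region has 8 mutant and 7 control libraries, all from females. Cage A (3 mutants and 2 controls per region) held mice of 3.4 months with the strain label C57BL/6 Background, whereas cage B (2 and 3) and cage C (3 and 2) held mice of 2.6 and 3.2 months labelled Mixed BL/6-129SvJ. All mice are said to carry 1 common microbiota. Strain, age and cage therefore cannot be told apart between cage A and the others, nor age and cage between cages B and C. The labels do not say that every library is a separate mouse or whether both regions came from the same mouse, so p-values measure only the spread between these libraries.

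Values are FPKM (fragments per kilobase of gene length per M mapped reads) as deposited. Sequencing depth was estimated from the steps between low values, at 6.49 to 8.99 M reads in descending mutants, 3.18 to 9.00 in descending controls, 1.46 to 7.76 in ascending mutants and 3.38 to 6.94 in ascending controls. The 3 ascending mutants of cage A had the lowest estimates. B3gnt6 reached at most 0.06 FPKM in descending mutants and 0.43 in descending controls, and at most 0.53 in ascending mutants, against 0.11 to 19.5 in ascending controls. C1galt1 averaged 28.2 ± 7.15 FPKM in descending mutants (SD, n = 8) against 32.9 ± 3.47 in descending controls (n = 7), and 26.7 ± 6.64 in ascending mutants (n = 8) against 35.3 ± 9.44 in ascending controls (n = 7). The log2 difference of C1galt1 between mutants and controls was -0.28 ± 0.16 in the descending and -0.36 ± 0.13 in the ascending colon (SE; limma, adjusted p = 0.999 and 0.348), with overlapping groups, so the whole-tissue values do not separate the genotypes. Epithelial markers (13 genes such as Krt8, Krt19 and Vil1) were abundant throughout, with summed levels of 3640 to 7215 FPKM in descending mutants, 3937 to 7153 in descending controls, 5924 to 7506 in ascending mutants and 4622 to 7772 in ascending controls.

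Mitotic genes are transcribed late in the cell cycle, so in a tissue their RNA is found mainly in cycling cells. In the colon these are the stem and transit-amplifying cells in the lower part of each crypt, while the differentiated colonocytes and goblet cells above them no longer divide. Many mitotic promoters are held silent in resting cells by the DREAM complex and activated later by the MuvB core together with B-Myb and FOXM1, through a DNA element called the cell cycle genes homology region (CHR), often helped by NF-Y bound at CCAAT boxes. In bulk tissue, more cells in mitosis and more RNA per dividing cell cannot be told apart.

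The levels of the 38 genes, which FPKM gives per gene length, spanned a wide range. Mki67, which codes for the Ki-67 protein that coats mitotic chromosomes, was the most abundant at a mean of 38.4 FPKM over the 30 libraries. It was followed by Ccnb2 (cyclin B2) at 17.1 FPKM, Top2a (topoisomerase II alpha, which untangles DNA) at 16.7 and Incenp (the scaffold of the chromosomal passenger complex) at 16.6. The lowest were Nuf2 at 1.34 FPKM, Ccnb1 (cyclin B1) at 1.49 and Ndc80 at 1.68. Nuf2 and Ndc80 form part of the kinetochore complex that grips microtubules. The lowest members rest on few reads, with an estimated 4.56 reads for Spc25 in 1 ascending mutant and 5.67 for Ccnb1 in 1 ascending control, whereas Mki67 had at least 506 estimated reads in every library.

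The genes varied together from library to library. After the mean of each region, genotype and cage was subtracted, the correlation of each gene with the mean of the other 37 ran from 0.45 to 0.93 over the 30 libraries, with a median of 0.80. Over all 11392 genes tried, the median correlation with the mean of the 38 was 0.15. These correlations are descriptions, since the genes share libraries and their depth. Plk1, the kinase that drives spindle assembly and mitotic exit, had the highest value at 0.93, and Cenpe, a kinetochore motor, and Incenp had the lowest at 0.45 and 0.47. Without the 2 libraries farthest from the median (descending mutant A3 and ascending control C2), the values for Plk1, Cenpe and Incenp were 0.91, 0.35 and 0.34. Among genes outside all lists used here with a mean of at least 1 FPKM, those most like the mean of the 38 by the same measure were Usp5 (r = 0.88, Spearman's rho 0.90), Prr11 (0.87 and 0.86), Nde1 (0.86 and 0.91), Nup133 (0.85 and 0.85) and Kdelr3 (0.84 and 0.87). Without those 2 libraries the r values were between 0.80 and 0.87. This likeness covers only the variation left after group means were subtracted. Between regions in controls (descending minus ascending), Kdelr3 had a log2 difference of -0.66 and Usp5 0.13 (limma, adjusted p = 0.0334 and 0.284). Prr11, Nde1 and Nup133 had 0.70, 0.50 and 0.45 (limma, adjusted p = 0.00395, 0.0219 and 0.00919).

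Promoter sequences are shown because the genes vary together and the CHR and CCAAT elements are known for this gene class. RefSeq start sites (build GRCm38.p6) gave windows of 250 bases before to 50 bases after the start for 32 of the 38 genes, in 34 windows. Aurkb, Ccna2, Foxm1, Incenp, Kif20a and Tpx2 are without one here. The CHR core TTTGAA was found on either strand in 26 of the 32 genes (81.2%), against 20.2% of all 27025 genes with a window. CCAAT was found on either strand in 25 of the 32 (78.1%), against 41.1% of all genes, and both elements in 22 (68.8%), against 7.97%. At 2 places in the 34 windows a match overlapped another one. In 25 genes a TTTGAA lay within 100 bases before the start or downstream of it, and 18 genes had at least 2 CCAAT boxes. Birc5, Nuf2 and Nusap1 held neither set of letters. The 7 sequences below, from 150 bases before the start to 30 bases after it, show 2 or more CCAAT boxes with a TTTGAA near the start (Ccnb2, Cdk1, Cdc20, Hmmr and Top2a), a more distant pair of TTTGAA (Mki67) and a window with neither (Nuf2). They are written 5′ to 3′ along the gene, and capitals mark a match of either element on either strand.
Ccnb2 (chr9:70421525-70421704, minus strand): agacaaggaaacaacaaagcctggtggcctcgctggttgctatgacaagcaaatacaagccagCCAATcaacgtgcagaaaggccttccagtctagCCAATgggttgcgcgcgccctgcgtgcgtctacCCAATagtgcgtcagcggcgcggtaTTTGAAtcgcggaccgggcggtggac
Cdk1 (chr10:69352883-69353062, minus strand): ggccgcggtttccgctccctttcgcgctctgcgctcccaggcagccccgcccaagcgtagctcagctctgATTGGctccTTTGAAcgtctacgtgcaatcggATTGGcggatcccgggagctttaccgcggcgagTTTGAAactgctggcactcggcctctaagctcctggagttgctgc
Cdc20 (chr4:118437314-118437493, minus strand): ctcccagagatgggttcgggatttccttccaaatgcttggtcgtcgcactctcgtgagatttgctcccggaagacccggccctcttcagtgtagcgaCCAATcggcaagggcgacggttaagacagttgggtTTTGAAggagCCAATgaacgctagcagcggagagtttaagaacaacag
Hmmr (chr11:40733408-40733587, minus strand): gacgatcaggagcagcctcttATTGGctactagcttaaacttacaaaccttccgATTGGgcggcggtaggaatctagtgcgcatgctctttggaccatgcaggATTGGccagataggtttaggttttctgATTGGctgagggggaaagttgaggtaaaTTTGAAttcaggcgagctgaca
Top2a (chr11:99024160-99024339, minus strand): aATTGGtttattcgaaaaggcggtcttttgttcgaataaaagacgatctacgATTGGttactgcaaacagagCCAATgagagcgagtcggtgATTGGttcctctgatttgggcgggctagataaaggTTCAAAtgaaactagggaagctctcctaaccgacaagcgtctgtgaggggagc
Mki67 (chr7:135716350-135716529, minus strand): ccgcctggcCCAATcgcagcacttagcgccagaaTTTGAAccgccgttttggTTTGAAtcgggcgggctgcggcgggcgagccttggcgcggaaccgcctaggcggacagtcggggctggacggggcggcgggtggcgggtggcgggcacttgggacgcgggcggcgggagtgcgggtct
Nuf2 (chr1:169531435-169531614, minus strand): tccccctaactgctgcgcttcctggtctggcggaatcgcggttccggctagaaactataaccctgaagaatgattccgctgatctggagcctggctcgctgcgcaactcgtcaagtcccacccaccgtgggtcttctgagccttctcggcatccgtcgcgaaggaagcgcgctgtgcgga
In Ccnb2 the 3 CCAAT boxes start 87, 54 and 21 bases before the start site, and TTTGAA begins at base 5 of the transcript. In Cdk1, which codes for the kinase that cyclin B activates, TTTGAA starts 71 and 15 bases upstream. A match describes only these letters, and no factor binding was measured here.

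The mean of log2(FPKM + 1) over the 38 genes was highest in the descending mutants and lowest in the ascending controls. It ran from 2.72 to 3.80 with a median of 3.08 in descending mutants, against 2.60 to 3.30 with a median of 2.81 in descending controls. In the ascending colon it ran from 1.95 to 3.02 with a median of 2.66 in mutants, against 1.67 to 2.50 with a median of 2.37 in controls. Mutants and controls overlapped in both regions. Descending mutant A3 was the highest library of all, descending control A2 was the highest of its group and ascending control C2 was the lowest of all, so the results below are also given without each of them where it matters.

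**Figure D1:**
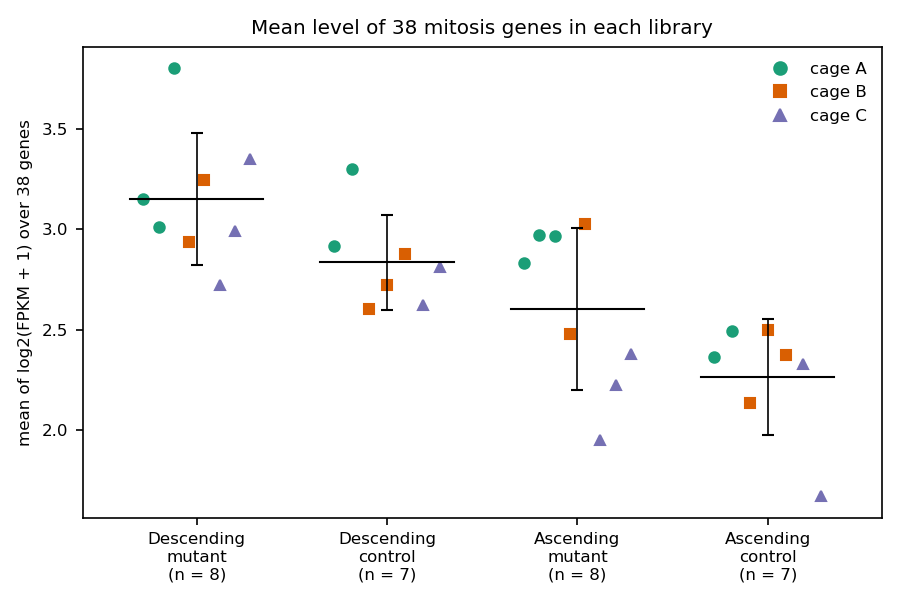
Mean of log2(FPKM + 1) over the 38 mitosis genes (vertical axis) in each of the 30 libraries, by group and cage (colour and shape). Lines and bars give the mean ± SD of each group; the descending mutants run from 2.72 to 3.80 and the ascending controls from 1.67 to 2.50.

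Mki67 (chromosome 7, 135689784 to 135716361, GRCm38) had 45.5 FPKM in the lowest descending mutant, 54.7 at the median and 88.7 in the highest, against 33.6, 36.9 and 56.8 in descending controls. In the ascending colon it had 17.95, 31.4 and 41.7 FPKM in mutants, against 12.7, 21.15 and 26.6 in controls. The mutant and control ranges overlapped in both regions, and no descending library fell below the highest ascending library of its genotype. Top2a (chromosome 11, 98992943 to 99024189) had 10.5, 21.1 and 40.9 FPKM in descending mutants, against 14.8, 17.1 and 24.15 in descending controls. Its ascending values were 8.14, 14.3 and 21.9 FPKM in mutants, against 5.60, 11.1 and 14.5 in controls. The descending mutants of Top2a reach both below and above all 7 descending controls.

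Ccnb1, the cyclin whose rise starts mitosis (chromosome 13, 100778650 to 100786570), was low throughout, at 0.98, 2.06 and 2.86 FPKM in descending mutants (lowest, median and highest), against 1.08, 1.46 and 2.30 in descending controls. Its ascending values were 0.61, 1.39 and 2.56 FPKM in mutants, against 0.27, 0.87 and 1.20 in controls. Ranges overlapped in both regions. Cdk1 (chromosome 10, 69335146 to 69352938) had 3.05, 6.65 and 13.3 FPKM in descending mutants, against 4.05, 5.00 and 6.46 in descending controls. Its ascending values were 2.47, 4.76 and 8.10 FPKM in mutants, against 1.69, 3.14 and 4.66 in controls. Here too the lowest mutant lay within or below the control range. Foxm1, the transcription factor that activates late cell cycle genes (chromosome 6, 128362967 to 128376146), had 5.25, 7.75 and 12.3 FPKM in descending mutants, against 4.32, 6.29 and 11.8 in descending controls. In the ascending colon it had 2.38, 4.59 and 5.73 FPKM in mutants, against 2.63, 3.73 and 5.60 in controls, so that its groups nearly coincided.

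**Figure D2:**
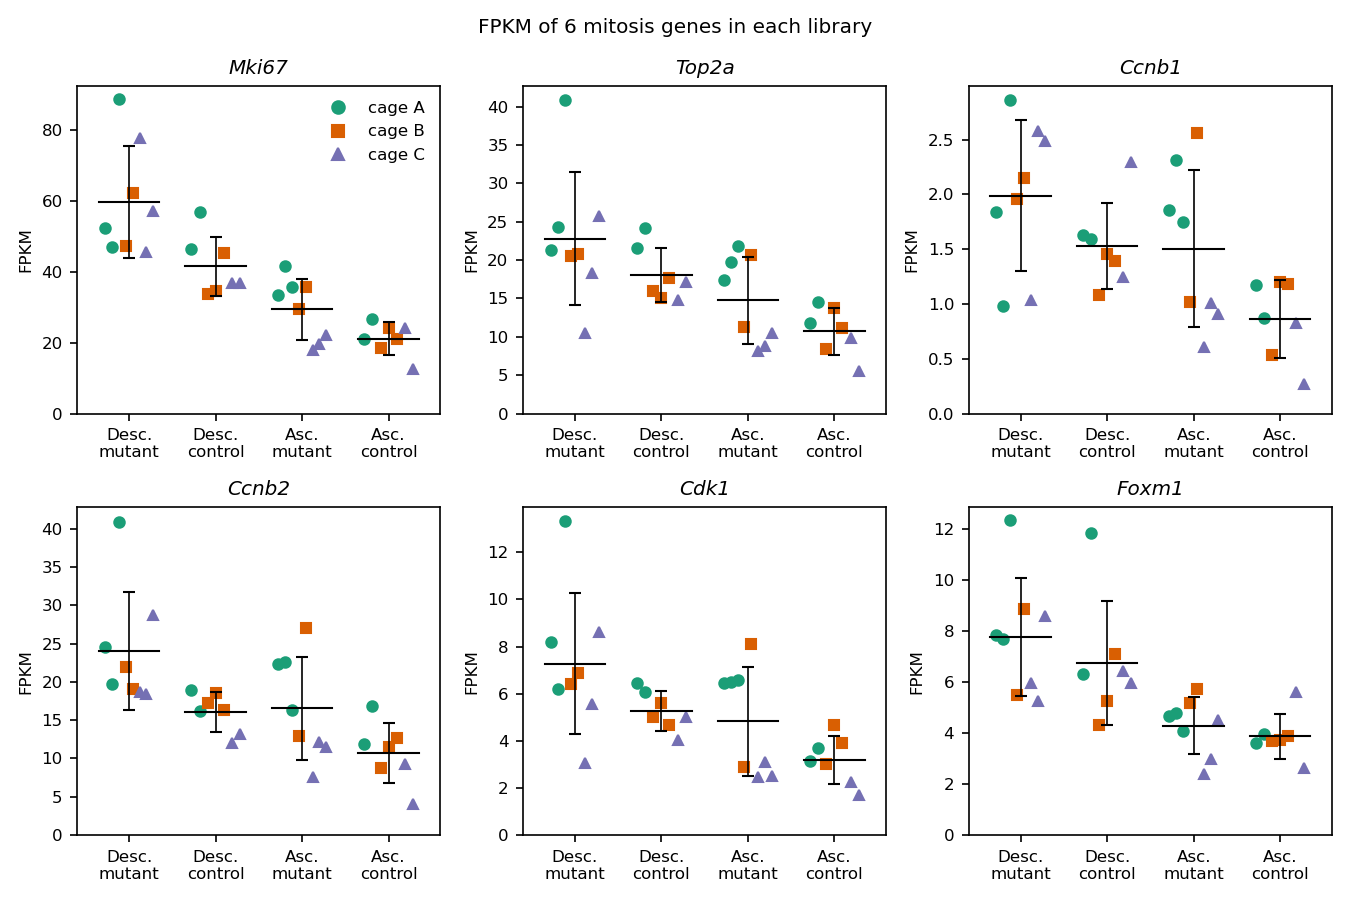
FPKM (vertical axes, from 0) of Mki67, Top2a, Ccnb1, Ccnb2, Cdk1 and Foxm1 in each library, by group and cage, with the mean ± SD of each group. Mutant and control points overlap in both regions for all 6 genes, and descending mutant A3 (cage A) is the highest point for each of them.

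In the ascending colon, all 38 genes had a higher fitted mean in mutants than in controls, and none of them passed the test. The median log2 difference was 0.38, about 1.30-fold, with a range from 0.10 for Prc1 to 0.74 for Kif20a, while the median over all 12178 genes tested was -0.05 and 38.7% of them were higher in mutants. With limma, 0 of the 38 genes and 0% of all genes had a Benjamini-Hochberg adjusted p under 0.05. At an unadjusted p under 0.05, 24 of the 38 were higher in mutants, against 3.46% of all genes. No gene of the 38 had all mutants above all controls, which held for 0.0164% of all genes.

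The smallest p was that of Nusap1, a microtubule-bundling protein of the spindle, at 2.30, 4.71 and 7.43 FPKM in ascending mutants (lowest, median and highest) against 1.14, 3.05 and 5.17 in ascending controls. Its log2 difference was 0.52 ± 0.12 (SE; limma, adjusted p = 0.214). Kif20a, a kinesin of the central spindle needed for cytokinesis, had 2.85, 6.22 and 11.4 FPKM in mutants against 1.75, 3.72 and 5.40 in controls, a log2 difference of 0.74 ± 0.18 (limma, adjusted p = 0.214). Mutants B1, C1 and C2 lay inside the control range of Kif20a. Hmmr, a spindle protein that binds microtubules, had 1.67, 2.85 and 4.08 FPKM in mutants against 0.94, 1.83 and 2.48 in controls, a log2 difference of 0.46 ± 0.11 (limma, adjusted p = 0.227). Ect2, the exchange factor that switches on RhoA at the cleavage furrow, had 4.20, 6.70 and 9.23 FPKM in mutants against 2.96, 4.81 and 6.61 in controls, a log2 difference of 0.35 ± 0.10 (limma, adjusted p = 0.273). Mki67, Top2a, Ccnb1 and Cdk1 had log2 differences of 0.46 ± 0.13, 0.42 ± 0.15, 0.43 ± 0.15 and 0.46 ± 0.16, with adjusted p between 0.273 and 0.344 (limma). Foxm1 had 0.14 ± 0.15.

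By role, the fitted differences in the ascending colon had medians from 0.26 to 0.47. The cyclin-Cdk genes and regulators (Foxm1, Ccna2, Ccnb1, Ccnb2, Cdk1, Plk1 and Aurka) had a median of 0.43, from 0.14 for Foxm1 to 0.62 for Ccnb2. The 8 spindle kinesins and microtubule proteins had a median of 0.42, from 0.10 for Prc1, which crosslinks microtubules of the central spindle, to 0.52 for Nusap1. The 5 genes of the chromosomal passenger complex and the centromere (Aurkb, Birc5, Incenp, Cdca8 and Cenpa) had a median of 0.38, from 0.11 for Incenp to 0.49 for Aurkb, the complex's kinase. The 8 kinetochore and checkpoint genes were lowest at a median of 0.26, from 0.11 for Ttk, the checkpoint kinase, to 0.37 for Nuf2. Of the genes tied to the anaphase promoting complex, the ubiquitin ligase that ends mitosis, Ube2c (its E2 enzyme) had 0.55, Cdc20 (its activator) 0.47 and Cdca3 0.44. The 5 cytokinesis genes ran from 0.20 for Kif23 to 0.74 for Kif20a. No difference between roles was tested.

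By cage, the median log2 difference of the 38 genes came to 0.51 for cage A, 0.44 for cage B and 0.18 for cage C, and 38, 38 and 29 of the genes were higher in mutants of these cages. In 29 of the 38 genes the difference was positive in all 3 cages, against 10.1% of all genes tested. A moderated F test of whether the genotype effect depended on cage gave 0 of the 38 genes and 0% of all genes at an adjusted p under 0.05 (limma), and 2 of the 38, Cenpe and Kif23, at an unadjusted p under 0.05, against 10.4% of all genes, so fewer than that share. Cage A mutants are also the libraries of lowest estimated depth, and without them the median was 0.31, with 37 of 38 genes higher and 0 past the threshold. Without ascending control C2 the median was 0.34 and all 38 genes were higher. The count of 0 depended on the weights and libraries: with array quality weights 20 of the 38 genes passed. Of all genes 746 then passed, 288 of them as higher in mutants. Without cage B 2 of the 38 passed, among 652 of all genes, 259 of them higher. Without ascending mutant B1 4 passed, among 170 of all genes, 88 of them higher.

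Markers of other cells also differed in fitted mean between ascending mutants and controls. Of 13 fibroblast and matrix genes, 12 had lower fitted means in mutants (median -0.72), and the list summed to 24.2 to 101 FPKM in ascending mutants against 75.9 to 191 in ascending controls. All 11 smooth muscle genes were lower (median -1.03), with sums of 29.2 to 80.5 FPKM in mutants against 39.2 to 484 in controls, and all 11 T cell genes kept (median -0.47) and all 8 myeloid genes kept (median -0.62) were lower. Of 13 epithelial genes, 10 were higher (median 0.15). The B cell and germinal centre list, another source of dividing cells, summed to 0.86 to 10.8 FPKM in mutants against 0.50 to 15.3 in controls, with 2 of its 13 genes kept in the fit. Its highest sums were in mutant B2 and control B2, which also had the highest mitotic means of their groups (3.025 and 2.497). In the descending groups these were different libraries. Without ascending mutant B2 the median over the 38 genes was 0.31. None of these marker genes passed the test (limma). With the mean of the epithelial markers as a covariate the median over the 38 genes was 0.40, and 0 passed. The part of the stromal and immune markers in the result was not tested.

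**Figure D3:**
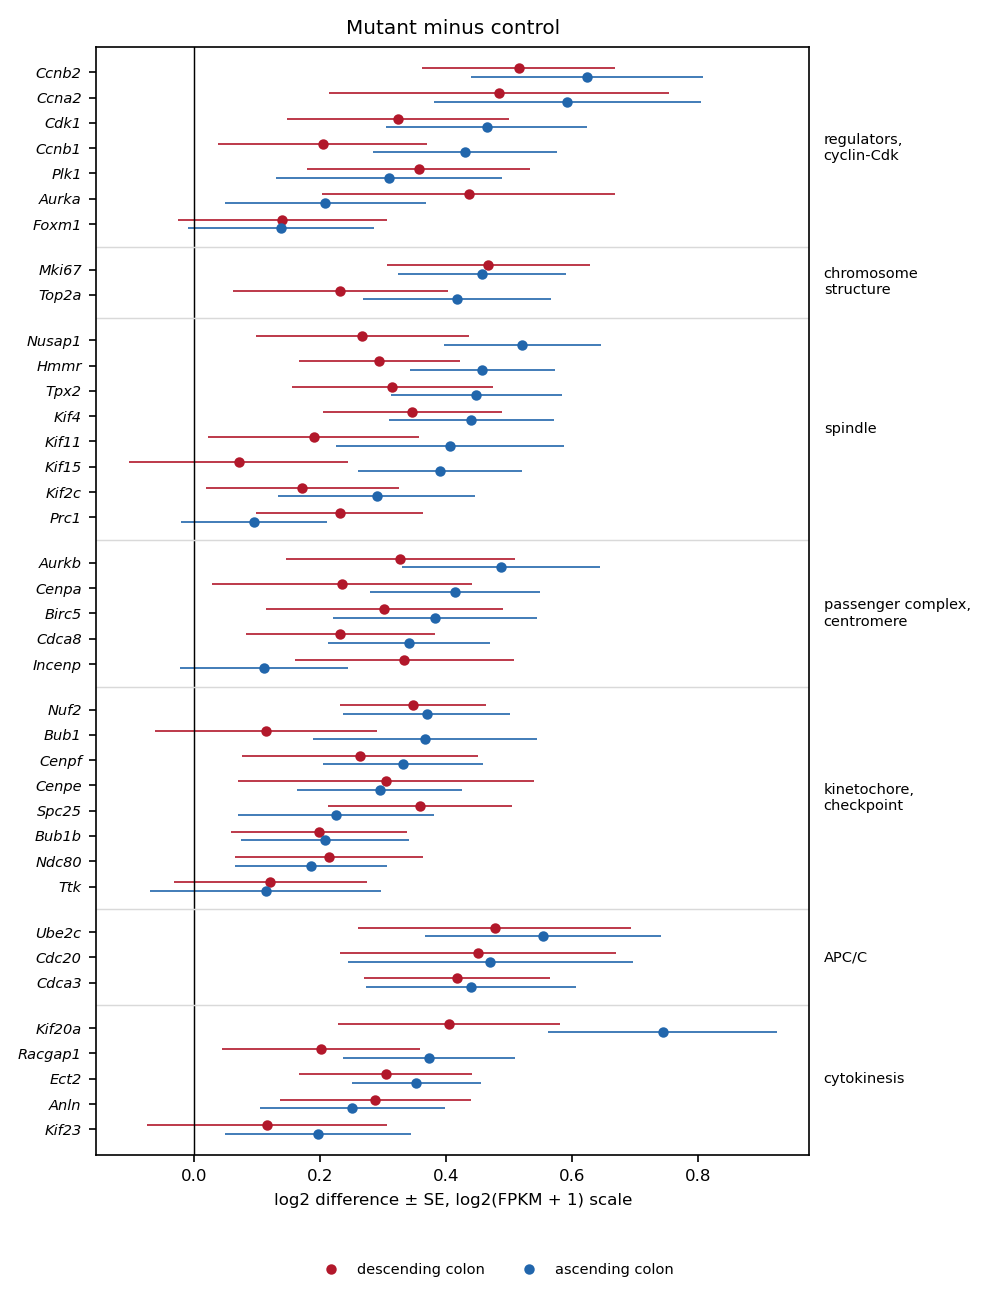
Log2 difference ± SE (horizontal axis) between mutants and controls for each of the 38 genes, grouped by role, in the descending (red) and the ascending colon (blue). All 76 points lie right of 0, and none has an adjusted p under 0.05 in limma.

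In the descending colon, all 38 genes again had a higher fitted mean in mutants than in controls, with a median log2 difference of 0.30, about 1.23-fold, and none passed the test. The differences ran from 0.07 for Kif15 to 0.52 for Ccnb2, while the median over all 12219 genes was -0.04 and 37.8% were higher in mutants. With limma, 0 of the 38 genes and 0% of all genes had an adjusted p under 0.05, and the adjusted p was 0.999 for each of the 38. At an unadjusted p under 0.05, 10 of the 38 were higher in mutants, against 0.802% of all genes. No gene of the 38, and 0% of all genes, had all mutants above all controls.

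Ccnb2 (chromosome 9, 70407692 to 70421547) had the smallest p of the 38, with 18.4, 20.9 and 40.95 FPKM in descending mutants (lowest, median and highest) against 12.1, 16.4 and 19.0 in descending controls. Its log2 difference was 0.52 ± 0.15 (SE; limma, adjusted p = 0.999). Mutants C1 and C2 lay inside the control range and the other 6 above it. Nuf2 had 1.17, 1.98 and 2.89 FPKM in mutants against 0.92, 1.43 and 1.49 in controls, a log2 difference of 0.35 ± 0.12. Cdca3, named as a trigger of mitotic entry, had 8.98, 14.4 and 23.1 FPKM in mutants against 8.44, 10.7 and 13.4 in controls, a log2 difference of 0.42 ± 0.15. Mki67 had 0.47 ± 0.16, close to its ascending value, whereas Top2a, Ccnb1 and Cdk1 had 0.23 ± 0.17, 0.20 ± 0.17 and 0.32 ± 0.18, and Foxm1 0.14 ± 0.17. By role, medians were 0.36 for cyclin-Cdk genes and regulators, 0.25 for spindle proteins, 0.30 for the passenger complex and centromere, 0.24 for kinetochore and checkpoint genes, 0.45 for the anaphase promoting complex and 0.29 for cytokinesis.

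Cage medians in the descending colon came to 0.23 (A), 0.34 (B) and 0.27 (C). The difference was positive in all 3 cages for 32 of the 38 genes, against 6.26% of all genes tested. The F test for a genotype effect that depends on cage gave 0 of the 38 genes and 0.00818% of all genes at an adjusted p under 0.05 (limma), with 0 of the 38 at an unadjusted p under 0.05, against 4.42% of all genes. Without descending mutant A3 the median was 0.23, and without descending control A2 it was 0.34, with all 38 genes higher in mutants both times. Smooth muscle genes (11 of 11) and fibroblast genes (12 of 13) again had lower fitted means in mutants, with medians of -0.62 and -0.38, and 10 of 13 epithelial genes had higher ones (median 0.13). With the epithelial mean as a covariate the median over the 38 genes was 0.29, and the part of the other markers was not tested.

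The 2 regional effects were compared directly in 1 fit of all 30 libraries, as the descending mutant minus control difference less the ascending one. For 0 of the 38 genes and 0% of all 12353 genes was the adjusted p under 0.05 (limma), and 0 of the 38 reached an unadjusted p under 0.05, against 1.60% of all genes. Over all genes the median of this difference was 0.01 and 52.5% were above 0. For the 38 genes the median was -0.08, with a range from -0.34 to 0.23, 11 genes above 0 and 27 below. Those above 0 were Aurka (0.23), Incenp (0.22), Prc1 (0.14), Spc25 (0.13), Plk1 (0.05), Anln (0.04), Ndc80 (0.03), and Cenpe, Mki67, Ttk and Foxm1 (0.0099, 0.0098, 0.0068 and 0.0023). The sign of the small median over the 38 genes changed with the libraries used. It was 0.0147 without cage A, 0.0061 without ascending mutants A1 to A3 and 0.00947 without ascending mutant B2. The median over all genes was then 0.0419, 0.0051 and 0.0233.

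**Figure D4:**
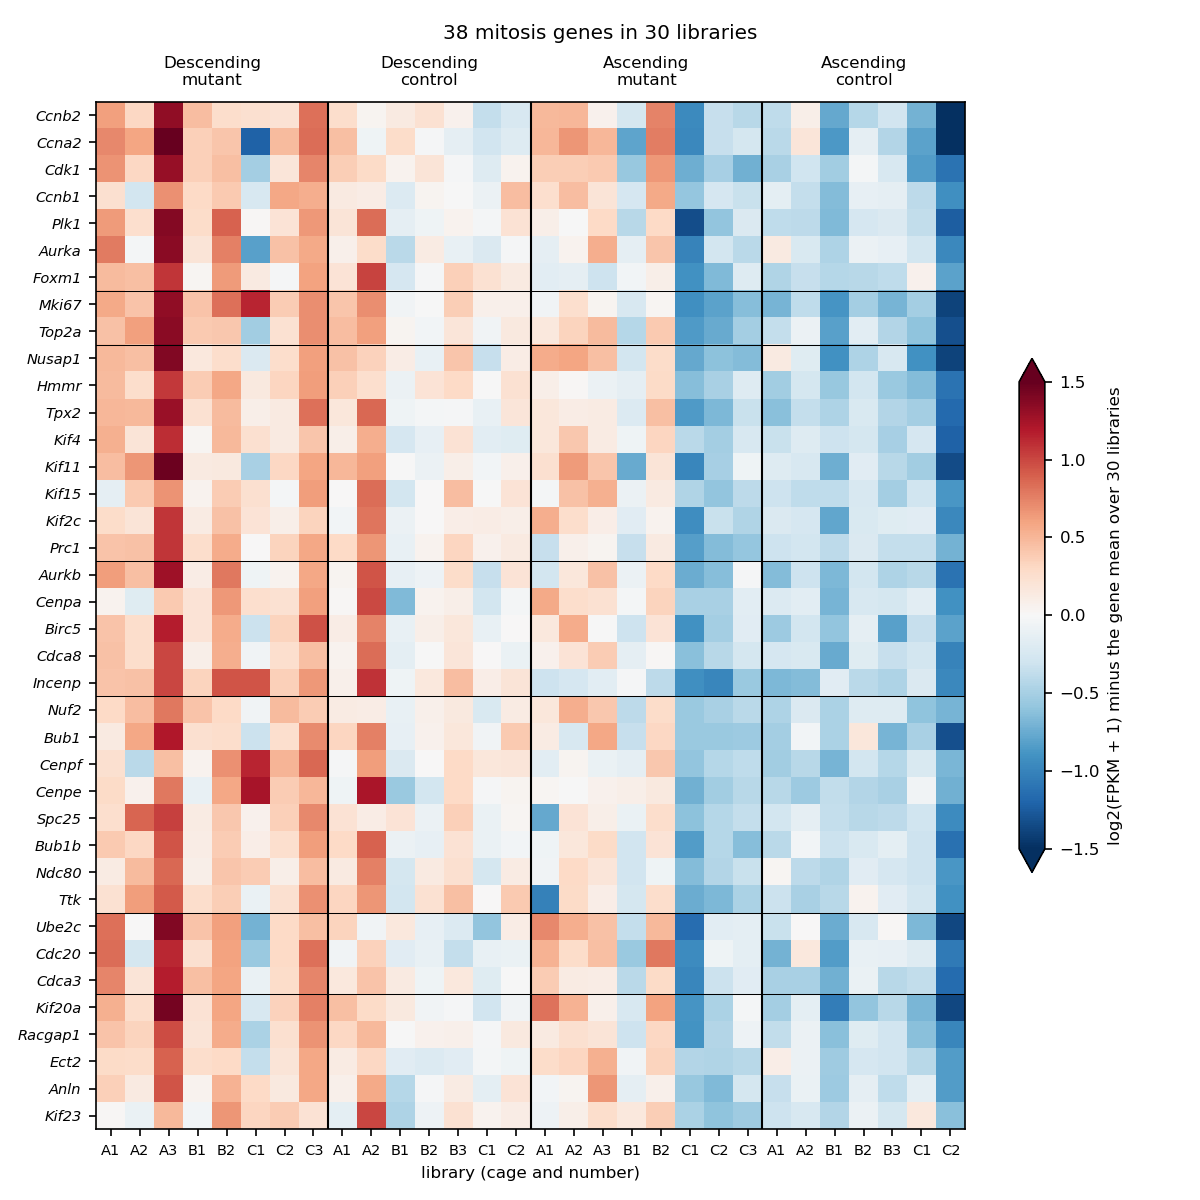
Log2(FPKM + 1) of the 38 genes (rows, by role) in the 30 libraries (columns, by group, cage and number) less each gene's mean over all libraries; colours saturate at 1.5 in either direction. Whole columns share a colour: descending mutant A3 is high and ascending control C2 low in nearly every row, and descending mutant C1 mixes high Mki67, Cenpe, Cenpf and Incenp with low Ccna2 and Aurka.

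Cage was compared with genotype held in the model. In the ascending colon 3 of the 38 genes, Nusap1, Ect2 and Top2a, differed between cages at an adjusted p under 0.05 (moderated F test, limma; adjusted p = 0.00185, 0.0167 and 0.0421), against 1.32% of all genes. Nusap1 averaged 7.09, 4.71 and 2.51 FPKM in mutants of cages A, B and C, against 4.55, 2.93 and 1.56 in controls of the same cages. Ect2 averaged 8.22, 6.89 and 4.25 FPKM in mutants and 6.15, 4.56 and 3.63 in controls, and Top2a 19.6, 15.9 and 9.15 in mutants and 13.2, 11.1 and 7.73 in controls. In both genotypes cage A was highest and cage C lowest for these genes. An unadjusted p under 0.05 was reached by 31 of the 38, against 15.6% of all genes. The count past the threshold depended on the libraries, at 12, 10 and 5 without ascending mutant B1, control C1 and control B1, where 581, 135 and 362 of all genes passed, against 161 with all libraries. It was 1 without ascending mutant A2, A3, C1 or C2 or without control A1 or C2, where 44 to 90 of all genes passed, and 27 with array quality weights, among 1579 of all genes. In the descending colon 0 of the 38 passed, against 0.597% of all genes (limma). An unadjusted p under 0.05 was reached by 5 of the 38, against 13.2% of all genes, which is the same share.

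Between regions, unlike between genotypes, most of the genes passed the test. Among controls, 32 of the 38 genes were higher in the descending than in the ascending colon at an adjusted p under 0.05 (limma), against 25.1% of all 12515 genes, and none was lower. All 38 fitted differences were positive, with a median of 0.60 (1.52-fold) and a range from 0.25 for Aurka to 0.95 for Mki67, while the median over all genes was 0.14 and 65.3% of them were higher. In 14 genes every descending control lay above every ascending control, which held for 6.89% of all genes. These were Mki67, Top2a, Kif11, Kif2c, Plk1, Birc5, Cenpf, Tpx2, Prc1, Hmmr, Incenp, Cdca8, Spc25 and Racgap1. All 38 differences were positive in each of the 3 cages, against 40.8% of all genes. The cage medians were 0.70, 0.41 and 0.68 for A, B and C, and 17 genes passed without cage B and 19 without cage C. Calls fell over the whole table too, with 1252 genes passing as higher without cage B and 1589 without cage C, against 3146 with all cages. Without descending control A2 32 of the 38 passed, with 3558 of all genes higher, and without ascending control C2 27 passed, with 2496 of all genes higher.

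Mki67 rose most, to 33.6, 36.9 and 56.8 FPKM in descending controls (lowest, median and highest) against 12.7, 21.15 and 26.6 in ascending controls, a log2 difference of 0.95 ± 0.14 (SE; limma, adjusted p = 0.000128). Hmmr had 2.92, 3.88 and 4.33 FPKM in descending controls against 0.94, 1.83 and 2.48 in ascending controls, a rise of 0.74 ± 0.12 (limma, adjusted p = 0.000312). The groups did not overlap for either gene. Kif20a had 4.81, 5.99 and 8.73 FPKM in descending controls against 1.75, 3.72 and 5.40 in ascending controls, a rise of 0.75 ± 0.13 (limma, adjusted p = 0.000661), with overlapping groups. Top2a rose by 0.73 ± 0.14 (limma, adjusted p = 0.00100), with 14.8 FPKM in its lowest descending control against 14.5 in its highest ascending control. Cdk1, Ccnb1 and Foxm1 rose by 0.61 ± 0.12, 0.45 ± 0.15 and 0.64 ± 0.17 (limma, adjusted p = 0.00153, 0.0280 and 0.00925).

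All 8 spindle genes passed in controls, with rises from 0.46 for Kif4, a chromosome-bound kinesin, to 0.74 for Hmmr. Of the 8 kinetochore and checkpoint genes 7 passed, with Cenpe at 0.52 ± 0.21 as the exception. Of the 7 cyclin-Cdk genes and regulators 6 passed. Aurka, a spindle pole kinase, had 0.25 ± 0.14 and did not. The passenger complex and centromere group had 4 of 5 past the threshold, led by Incenp at 0.79 ± 0.18, while Cenpa, the centromeric histone, had 0.40 ± 0.19. Cytokinesis had 4 of 5, without Kif23 at 0.36 ± 0.19. Of the anaphase promoting complex genes, Cdca3 rose by 0.62 ± 0.13, whereas Cdc20 had 0.33 ± 0.18 and Ube2c 0.42 ± 0.17 without passing.

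Among mutants, 28 of the 38 genes were higher in the descending colon at an adjusted p under 0.05 (limma), against 29.7% of all 12203 genes, and none was lower. The median was 0.53, against 0.16 over all genes, and 35 of the 38 were higher in every cage, against 43.9% of all genes. Incenp rose most, to 19.5, 22.7 and 31.6 FPKM in descending mutants against 7.27, 11.8 and 15.1 in ascending mutants, a log2 difference of 1.09 ± 0.14 (SE; limma, adjusted p = 1.44e-05). Mki67 followed at 1.01 ± 0.17 (limma, adjusted p = 0.000142). These were the 2 genes whose groups did not overlap, which held for 7.27% of all genes. The share of the 38 was thus not above that of all genes. Prc1 had 4.22, 6.03 and 9.94 FPKM in descending mutants against 1.92, 3.09 and 4.72 in ascending mutants, a rise of 0.77 ± 0.13 (limma, adjusted p = 0.000221). Foxm1 rose by 0.72 ± 0.15 (limma, adjusted p = 0.000966). Kif20a, Kif15, Kif23, Ccnb1, Ccna2, Cdc20, Aurka, Cenpa, Ube2c and Ect2 did not pass, with differences from 0.25 for Cenpa to 0.52 for Aurka. By cage the medians came to 0.39 (A), 0.32 (B) and 0.79 (C), and without cage C 6 of the 38 passed. Of all genes 2139 then passed as higher, against 3620 with all cages. Without descending mutant A3 the count was 22, with 3482 of all genes higher.

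**Figure D5:**
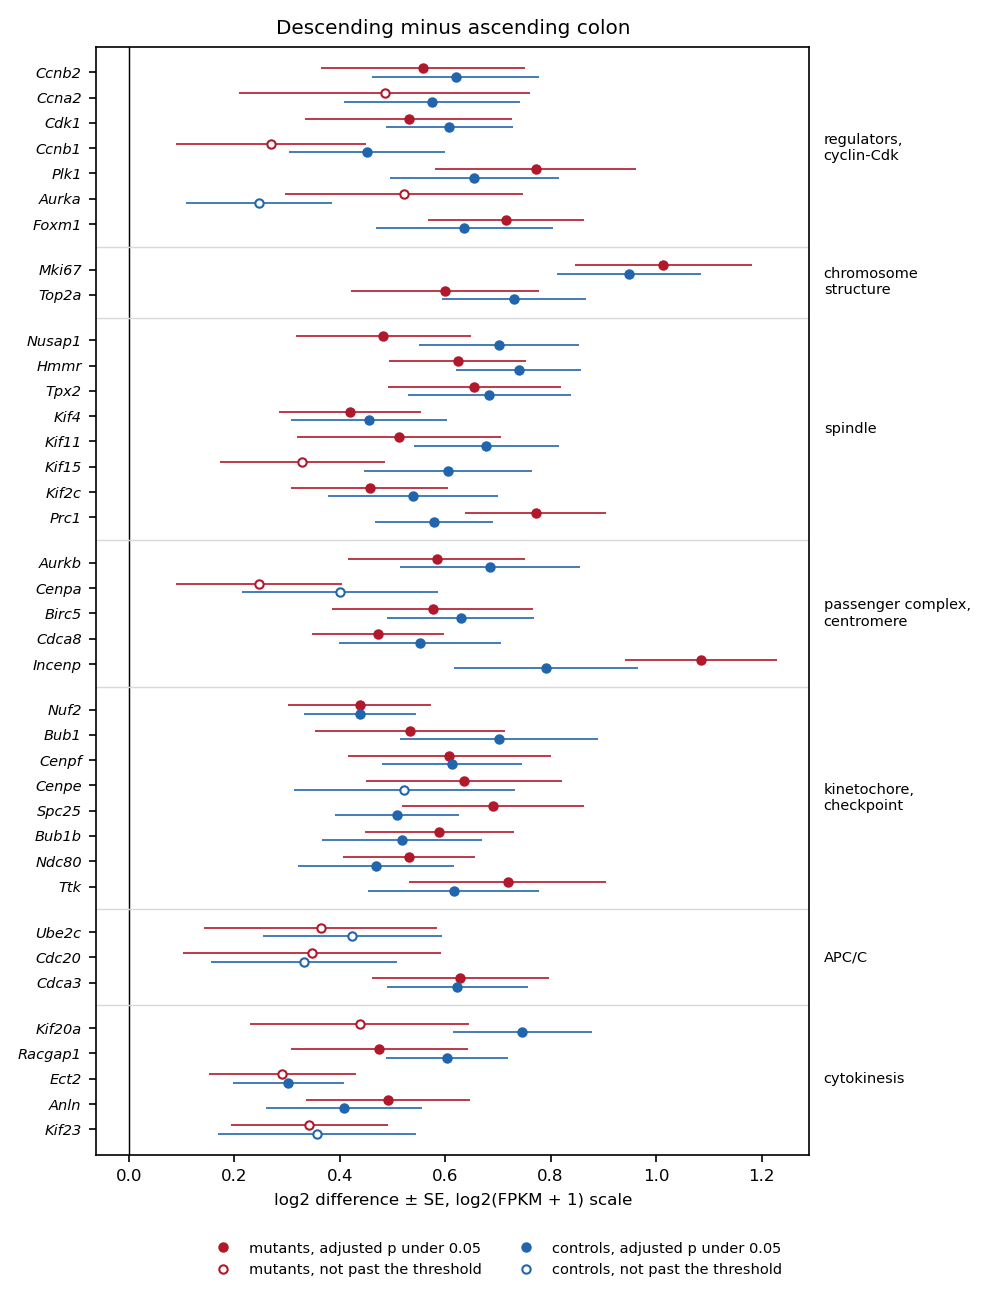
Log2 difference ± SE (horizontal axis) between the descending and the ascending colon for each gene, grouped by role, in mutants (red) and controls (blue); filled points have an adjusted p under 0.05 in limma. All points lie right of 0, from 0.25 to 1.09, with 28 filled in mutants and 32 in controls.

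The size of the regional difference depended on how the libraries were scaled. Median-of-ratios scaling set the median of all genes to 0.01 in controls, a shift of the whole table, and to 0.03 in mutants. Relative to that, the median over the 38 genes was 0.47 in controls and 0.40 in mutants, all 38 differences stayed positive, and 26 genes passed in controls and 17 in mutants (limma). Of all genes, 1885 then passed as higher and 2143 as lower in descending controls, where the deposited scaling gave 3146 and 1598. In mutants the split was 2284 higher and 2327 lower, where the deposited scaling gave 3620 and 1748.

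Other markers also differed between the regions. In controls, all 10 T cell genes kept were lower in the descending colon (median -1.19), with all 10 past the threshold, and smooth muscle genes had a median of 1.43 with 1 of 11 past the threshold as higher and 1 as lower. In mutants, all 8 T cell genes kept fell in the descending colon (median -0.97), and 10 of 11 smooth muscle genes rose and 1 fell (median 1.65). There 4 of 13 fibroblast genes rose and 0 fell, and 5 of 11 goblet cell genes rose and 3 fell. Over all genes, 25.1% passed as higher in descending controls and 29.7% in descending mutants. Those passing as lower were 1598 of 12515 genes in controls and 1748 of 12203 in mutants. The 4 of 13 fibroblast genes were thus near the share of all genes. The lists of stem cell and epithelial genes split in controls, with 8 stem cell genes passing as higher and 4 as lower, and 0 epithelial genes passing as higher and 3 as lower, namely Cdx2, Krt20 and Vil1. The mean of all 13 epithelial genes, which include Cdx2, Krt20 and Vil1, was also used as a covariate. With it, 4 of the 38 mitotic genes passed in controls (median 0.39, 35 of 38 positive) and 22 in mutants (median 0.67). Over all genes, 1022 then passed as higher in descending controls, against 3146 without the covariate, and 3062 in descending mutants, against 3620. The part of the other markers was not tested.

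Of 101 other mitosis genes in the table, 87 of the 99 kept had higher fitted means in ascending mutants than in ascending controls (median 0.18) and 79 of 101 in descending mutants (median 0.11), and none passed. At an unadjusted p under 0.05, 23 and 3 of them were higher, against 3.46% and 0.802% of all genes. Of all genes, 38.7% had higher fitted means in ascending mutants and 37.8% in descending mutants. The 3 with the smallest p in the ascending colon were Cep55, Ckap2 and Ckap2l, with Cep55, an abscission factor, at 3.37 FPKM on average in mutants against 1.91 in controls (log2 difference 0.62; limma, adjusted p = 0.214). Of the DNA replication genes, 45 of 49 had higher fitted means in ascending mutants (median 0.15, with 10 at an unadjusted p under 0.05), but in the descending colon 17 of 49 did (median -0.04, with 0 at an unadjusted p under 0.05). For the difference between these regional effects, 44 of the 49 values were below 0 (median -0.20), while 52.5% of all genes were above 0. Of the 49, 0 had an unadjusted or adjusted p under 0.05 (limma).

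Upstream regulators had medians near 0 with genotype. Most G1 cyclins and drivers had lower fitted means in mutants of both regions, as did most of all genes. Over all genes, 38.7% had higher fitted means in ascending mutants and 37.8% in descending mutants. Of 20 genes of the MuvB, E2F and NF-Y families, 14 had higher fitted means in ascending mutants and 7 in descending mutants, with medians of 0.05 and -0.02. Of 9 G1 cyclins and drivers 3 and 2 were higher, with medians of -0.17 and -0.16, and of 14 cell cycle inhibitors 8 and 5. Of the crypt base and stem cell genes, 1 of 15 had a higher fitted mean in ascending mutants (median -0.17) and 1 of 13 in descending mutants (median -0.27). Lgr5, the stem cell receptor for R-spondins, averaged 0.73 FPKM in ascending mutants against 1.17 in ascending controls, and 0.83 in descending mutants against 2.09 in descending controls. Its log2 differences were -0.35 and -0.76 (limma, adjusted p = 0.338 and 0.999). None of the genes in these lists passed in either genotype comparison.

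Between regions, in controls, 60 of 100 other mitosis genes rose and 0 fell in the descending colon (median 0.43), as did 36 of 49 DNA replication genes, with 0 falling (median 0.60). Stmn1, a microtubule destabiliser, averaged 5.01 FPKM in descending controls against 1.92 in ascending controls (log2 difference 1.08; limma, adjusted p = 8.46e-05), and Tyms, which makes thymidylate, 5.20 against 2.27 (0.91; limma, adjusted p = 9.72e-05). Of the 9 G1 cyclins and drivers 5 rose. Ccnd2 (cyclin D2) averaged 62.8 FPKM in descending controls against 15.2 in ascending controls (1.92; limma, adjusted p = 1.04e-05). Of the 20 regulators 5 rose and 1 fell, and of the 14 inhibitors 3 rose and 1 fell, shares of higher genes at or below the 25.1% of all genes, the falling one being Cdkn1c at 2.09 FPKM in descending controls against 8.28 in ascending controls (-1.57; limma, adjusted p = 1.80e-05).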

How the data were processed

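The authors deposited 1 table of FPKM per gene with 2 decimals for 30 libraries (1 ug total RNA, ribosomal RNA depletion, single reads of 50 nt, per the labels' protocols). Bcl2fastq 2.17, STAR, DESeq2 and GRCm38/mm10 are named, without roles, per the submitters' processing notes; neither the gene counter nor the annotation release is given in the sources used here. FPKM divides by each library's mapped reads, so a gene's value also depends on the other genes. Counts were not used here, and depth was estimated from the FPKM steps of short genes (1.46 to 9.00 M reads), so it is approximate and no interval is given.

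Values were analysed as log2(FPKM + 1), which understates changes of low genes, in limma 3.58.1 (R 4.3.3; lmFit, eBayes with trend), keeping genes whose mean FPKM reached 0.5 in the fitted libraries, with Benjamini-Hochberg adjustment over all genes kept and a threshold of 0.05. Genotype was fitted per region and region per genotype, both adjusted for cage, and the difference between the regional genotype effects in all 30 libraries. All fitted differences are mutant minus control or descending minus ascending. Model scripts were tested on simulated data. The members and lists were chosen with earlier results of these data known. Named genes are Mki67, Top2a, Ccnb1, Cdk1 and Foxm1, the 4 members with the smallest p for genotype in each region and for regions in controls, members against the common direction, role groups, and up to 3 genes per other list; Lgr5, Incenp, Prc1 and Foxm1 between regions in mutants, Ccnd2 and Cdx2, Krt20 and Vil1 were named after their values were seen. Gene positions are from GENCODE M21 (14472 of 14475 IDs matched), and promoters from RefSeq. Alternatives were other pseudocounts, filters, scalings, weights and covariates, single fits, a replicate block, and leaving out each cage or library.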

Additional observations from a re-analysis of the deposited data

Results flagged for a closer look

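Each of the 38 genes, and the mean of their log2 values, was examined in each of the 4 groups for a lowest or highest library set apart from the others by more than the 95% critical value of Dixon's test, and 29 of 156 group tests were so marked, all of them single genes. Chance alone marks about 1 in 20 groups, and genes that vary together are marked together, so the count is not 29 separate events.

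Of the descending mutants, A3 was the library set apart, as the highest. It had 18.21 FPKM for Kif20a, 27.26 for Kif11, 11.11 for Kif4, 7.25 for Kif2c and 13.69 for Nusap1. It also had 40.95 FPKM for Ccnb2, 34.55 for Ccna2, 9.94 for Prc1, 7.69 for Hmmr and 3.67 for Ndc80. Its goblet cell markers were the highest of its group too. So were its sums for other mitosis genes (1167 FPKM), DNA replication genes (541.4) and MuvB, E2F and NF-Y regulators (217.9). The same held for fibroblast (147.5), plasma cell (147.4) and neuron and glia markers (5.01). The other lists had their highest sums in other libraries of the group.

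Of the descending controls, A2 was set apart as the highest. It had 12.65 FPKM for Kif23, 5.83 for Kif2c, 17.62 for Cdc20, 13.99 for Aurkb, 21.12 for Plk1, 13.69 for Bub1b and 10.31 for Birc5. It also had 14.53 FPKM for Cenpe, 12.62 for Cenpa, 12.04 for Tpx2, 3.35 for Ndc80, 33.50 for Incenp, 6.83 for Cdca8 and 11.82 for Foxm1. Its myeloid marker sum of 203.0 FPKM was the highest of its group. So were its sums for other mitosis genes (890.1 FPKM), DNA replication genes (364.6) and crypt base and stem cell genes (394.4). The same held for MuvB, E2F and NF-Y regulators (216.8) and for neuron and glia markers (9.51). The other lists had their highest sums in other libraries of the group. Its estimated depth of 3.18 M reads was the lowest of the group.

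In the ascending colon, mutant A3 was the highest of its group for Anln, at 6.72 FPKM. Ascending control C2 was set apart as the lowest, with 1.42 FPKM for Kif4, 2.66 for Bub1b, 2.17 for Prc1 and 0.72 for Spc25.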

How the results depend on the processing

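The 38 genes kept a positive median under every alternative for genotype (ascending 0.31 to 0.48, descending 0.18 to 0.35) and region (controls 0.39 to 0.75, mutants 0.37 to 0.67); causes of the shifts below were not tested. Members past the threshold for genotype numbered 20 in the ascending colon with array quality weights, 2 without cage B and 0 to 4 when single libraries were left out. Of all genes, 288, 259 and at most 88 then passed as higher. For the descending colon the members past the threshold were 0 throughout. For regions in controls they numbered 4 with the epithelial covariate, 17 without cage B, 19 without cage C and 27 to 34 leaving out 1 library. For regions in mutants the members numbered 17 with median-of-ratios scaling, 14 with quantile normalization, 6 without cage C and 22 to 31 leaving out 1 library. With median-of-ratios scaling 2284 of all genes passed as higher, and without cage C 2139. The count of 22 came with 3180 to 3482 of all genes higher. With quantile normalization 2282 of all genes passed as higher in descending mutants, against 3620 with the deposited scaling. The highest counts leaving out 1 library, 34 in controls and 31 in mutants, came with 3293 and 4084 of all genes higher. For cage in the ascending colon the members numbered 27 with array quality weights and 1 to 12 leaving out 1 library, with the counts over all genes given above. The median of the difference between regional effects turned positive at 0.0147 without cage A and 0.0061 without ascending mutants A1 to A3, a setting added after the data were seen, and ran from -0.19 to 0.00947 leaving out 1 library.

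Single genes that turned negative were Incenp in the ascending colon (-0.0427 without cage A or without mutants A1 to A3), Foxm1 there (-0.0105 without cage B) and Kif23 in the descending colon (-0.0325 without cage B, and -0.0109 to 0.31 leaving out 1 library). Kif15 there ran from -0.00127 to 0.20 leaving out 1 library. Between regions in controls, Kif23, Aurka and Cenpa were at -0.0698, -0.0353 and -0.0909 with the epithelial covariate, and in mutants Cenpa was at -0.0499 without cage C.

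With the replicate block, 0 members passed for genotype in either region (medians 0.34 ascending, 0.18 descending, where Bub1 was at -0.0392), 30 for regions in controls and 29 in mutants. Of all genes, 2786 then passed as higher in descending controls and 3491 in descending mutants, against 3146 and 3620 without the block. Same-numbered libraries correlated at -0.28 to 0.37 between regions, with 4 of 15 pairs over 0.1, 3 of them the cage C mutants. Pairs were therefore not used in the results above; whether they share a mouse is not given, and with 2 libraries per cage and genotype both pairs get the same value. Low members such as Spc25, Ttk and Ccnb1 rest on few reads, which limits their precision.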

Other observations

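Descending mutant C1 differed from its group in a way that separated members of the list, a pattern chosen after its values were seen. Relative to the mean of its group, on the log2(FPKM + 1) scale, it stood at 0.77 for Cenpe, 0.70 for Cenpf, 0.42 for Mki67 and 0.30 for Incenp. The same library stood at -1.71 for Ccna2, -1.22 for Aurka, -1.12 for Ube2c, -0.97 for Top2a and -0.95 for Cdk1. Among these genes the union exon length was 15433 bases for Cenpf, 10061 for Mki67, 8620 for Cenpe and 4329 for Incenp, and 4083 for Ccna2, 2531 for Aurka, 2600 for Ube2c, 9013 for Top2a and 4934 for Cdk1. Top2a is longer than Cenpe and Incenp is shorter than Cdk1, and the part of length in the pattern was not tested. Across the 38 genes the Spearman correlation of the deviation with exon length was 0.49 in this library, and across 12350 genes it was 0.29. Over the 30 libraries the same correlation ran from -0.55 to 0.56 across the 38 genes and from -0.33 to 0.29 across all genes. These are correlations across genes, which are not independent replicates, and RNA quality was not analysed here.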
